A study of Mus musculus with 8 samples.

Results

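Fibrillins, elastin, fibulins and the proteins bound to them form the elastic fibres and microfibrils of connective tissue, and 10 of their genes are described here in the kidneys of p53 null mouse embryos. The genes are Fbn1, Fbn2, Eln, Fbln1, Fbln2, Fbln5, Mfap2, Mfap4, Mfap5 and Emilin1. They were chosen by name around Fbn2, whose ratio on these arrays was already known, so their ratios are a description and carry no test. Together they had 13 of the 41174 probes on the array that are not controls. Of the 10 genes, 9 had a probe bright enough to be tested, among 12000 such genes in all, and Fbln5 had none.

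Whole kidneys of p53 null embryos were compared with kidneys of p53 wild-type embryos, at embryonic day 15.5 and in the C57BL/6 strain for both. Each of the 8 arrays carried null RNA in one dye and wild-type RNA in the other, with null in Cy5 (red) on 4 arrays and in Cy3 (green) on the other 4. The arrays made up 3 biological replicates, with 4 arrays for replicate 1 and 2 each for replicates 2 and 3. The kind of null allele and the number of embryos or litters behind each RNA are not given in the sources used here, so the spread between replicates measures only these RNA pairs. Unless a signal is named, a value is a log2 ratio with null on top and wild type below. A replicate's value is the mean of its dye orientations, and means carry the SD over the 3 replicates.

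Fibrillins assemble into microfibrils, long beaded threads that carry load in tissues without elastin and serve elsewhere as the scaffold on which elastin is laid down and cross-linked. Fibulins, microfibril-associated glycoproteins and emilins join these parts to each other and to cells, and latent TGF-beta and bone morphogenetic proteins are stored on the microfibrils. In the kidney such fibres lie in vessel walls, around glomeruli and in the stroma, the connective tissue cells between the nephrons.

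The tissue and the genotype were checked first. Of 14 nephron markers, 12 had a tested probe, and all 12 were well above background in both genotypes in every replicate (on 50% or more of its arrays), as were all 14 markers of renal stroma. The brighter Trp53 probe had −1.08, −0.47 and −0.45 in replicates 1, 2 and 3 and lay below 0 on 8 of 8 arrays, while a second Trp53 probe had 0.01, 0.28 and 0.18. Both Trp53 probes were well above background on every array in both genotypes, so Trp53 signal remained in all null RNA. Which part of Trp53 the allele removes is not stated in the labels, and a probe that lies elsewhere in the gene checks nothing. Replicate 1 was on one slide and replicates 2 and 3 on another, so a difference between replicate 1 and the others cannot be told apart from a difference between slides. Across 20865 probes, which are not independent, the ratios of replicate 1 had a Pearson correlation of 0.06 with those of replicate 2 and −0.15 with those of replicate 3. The ratios of replicates 2 and 3 had a correlation of 0.93 with each other. The scan names number the wild-type RNA of replicates 2 and 3 alike, and whether a single RNA served both is not given. The RNA pairs of replicates 1 and 3 also differed in sex-linked transcripts. The female transcript Xist was well above background in null RNA in replicate 2 alone and in wild-type RNA in all 3. The Y-linked Eif2s3y was well above background in null RNA in replicates 1 and 3 and in wild-type RNA in none. In replicates 1 and 3 a difference between genotypes thus cannot be told apart from a difference of sex. The pair of replicate 2 did not differ in these calls, though its Xist ratio was −0.66.

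Fbn2 had the lowest ratio of the 9 tested genes. Fibrillin-2 is the fibrillin made mainly before birth, and its mean ratio was −0.96 ± 0.23 (SD, n = 3), which is 0.513 of the wild-type level. Its signals on the scanner's processed scale were 3817 in null and 7420 in wild-type RNA in replicate 1. They were 2028 in null and 4839 in wild-type RNA in replicate 2, and 3039 in null and 5211 in wild-type RNA in replicate 3. The null signal was thus below its wild-type partner in each pair. Signals are not scaled between slides, so they are set against each other only within a pair. Single arrays had −1.28, −0.48, −1.43 and −0.56 in replicate 1, −1.39 and −1.02 in replicate 2, and −0.92 and −0.56 in replicate 3. All 8 arrays lay below 0, with a dye difference: the mean of 4 arrays was −1.26 with null RNA in Cy5 and −0.66 with null RNA in Cy3. Counted from the lowest ratio, Fbn2 was number 80 of 12000 genes, and 0.667% of genes were as low. In whole-kidney RNA, fewer cells of a type and less RNA per cell cannot be told apart, here and for every gene that follows.

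Fbn1 encodes fibrillin-1, the main fibrillin of adult tissue. Its brighter probe had a mean of −0.38 ± 0.43, with 0.11, −0.71 and −0.54 in replicates 1, 2 and 3. Its signals were 1466 in null and 1324 in wild-type RNA in replicate 1, 264 in null and 567 in wild-type RNA in replicate 2, and 257 in null and 486 in wild-type RNA in replicate 3. The null signal was the lower one in both pairs of the second slide and the higher one in replicate 1. Replicate 1 itself depended on the dye. Its arrays had 0.35 and 0.57 with null RNA in Cy5, and −0.31 and −0.17 with null RNA in Cy3. The arrays of the other replicates were all below 0, from −1.04 to −0.18. A second Fbn1 probe was dim and was not tested. It passed the background test in both genotypes on the 4 arrays of replicate 1, where it had −0.09, and on none of the second slide. The fibrillin genes therefore shared a ratio below 0 on the second slide, where Fbn2 had −0.97 and Fbn1 −0.63, but not in replicate 1.

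**Figure D1:**
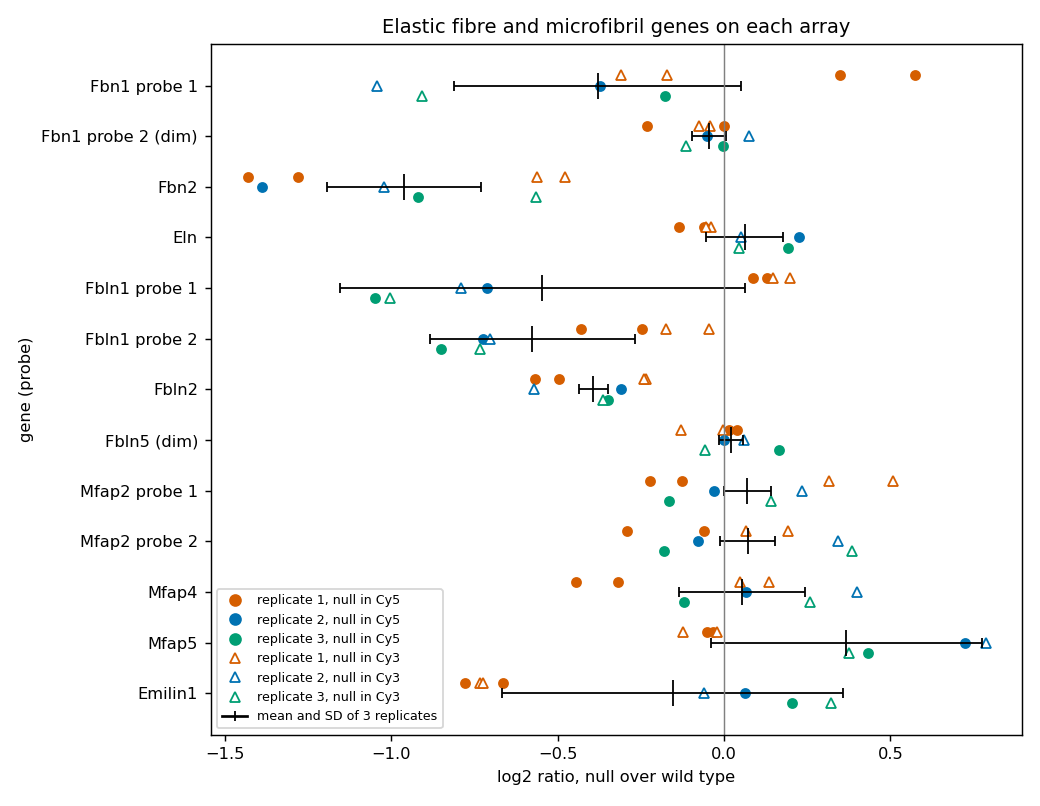
Log2 ratio of null over wild type (horizontal axis) for the 13 probes of the group (rows) on each of the 8 arrays (points, coloured by replicate and shaped by the dye of the null RNA), with the mean and SD over 3 replicates as bars; rows marked dim were not tested. Fbn2 and Fbln2 lie below 0 on all 8 arrays, while Fbln1, Mfap5 and Emilin1 separate by replicate.

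Among the fibulins, which bridge microfibrils, elastin and basement membranes, Fbln2 had the smallest SD between replicates of the measured members. Its replicates had −0.38, −0.44 and −0.36, a mean of −0.39 ± 0.04 or 0.761 of the wild-type level. Its signals were 2504 in null and 3232 in wild-type RNA in replicate 1, 2592 in null and 3559 in wild-type RNA in replicate 2, and 2853 in null and 3779 in wild-type RNA in replicate 3. Null was the lower one in each pair and on each of the 8 arrays, which ran from −0.57 to −0.23. The dye gap ran in opposite directions: replicate 1 had −0.49 and −0.57 with null RNA in Cy5 and −0.23 and −0.24 with null RNA in Cy3, while replicate 2 had −0.31 with null RNA in Cy5 and −0.57 with null RNA in Cy3.

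Fbln1, whose product sits in basement membranes and in the elastin core of fibres, split by slide. The brighter of its probes had 0.14 in replicate 1, −0.75 in replicate 2 and −1.03 in replicate 3, a mean of −0.55 ± 0.61. Signals were 8906 in null and 8366 in wild-type RNA in replicate 1, 8898 in null and 15493 in wild-type RNA in replicate 2, and 7024 in null and 14561 in wild-type RNA in replicate 3. The null signal was the lower one in both pairs of the second slide and not in replicate 1. The 4 arrays of replicate 1 ran from 0.09 to 0.20, and the 4 arrays of replicates 2 and 3 from −1.05 to −0.71, without overlap. The other Fbln1 probe, named by the same transcript record, had −0.22, −0.71 and −0.79, a mean of −0.58 ± 0.31, and lay below 0 on 8 of 8 arrays. The probes thus differed in sign in replicate 1 and had the same sign on the second slide. Fbln5, which in mice is needed to build elastic fibres in vessels, lung and skin, was not well above background on any of the 8 arrays in either genotype, so no ratio is given.

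**Figure D2:**
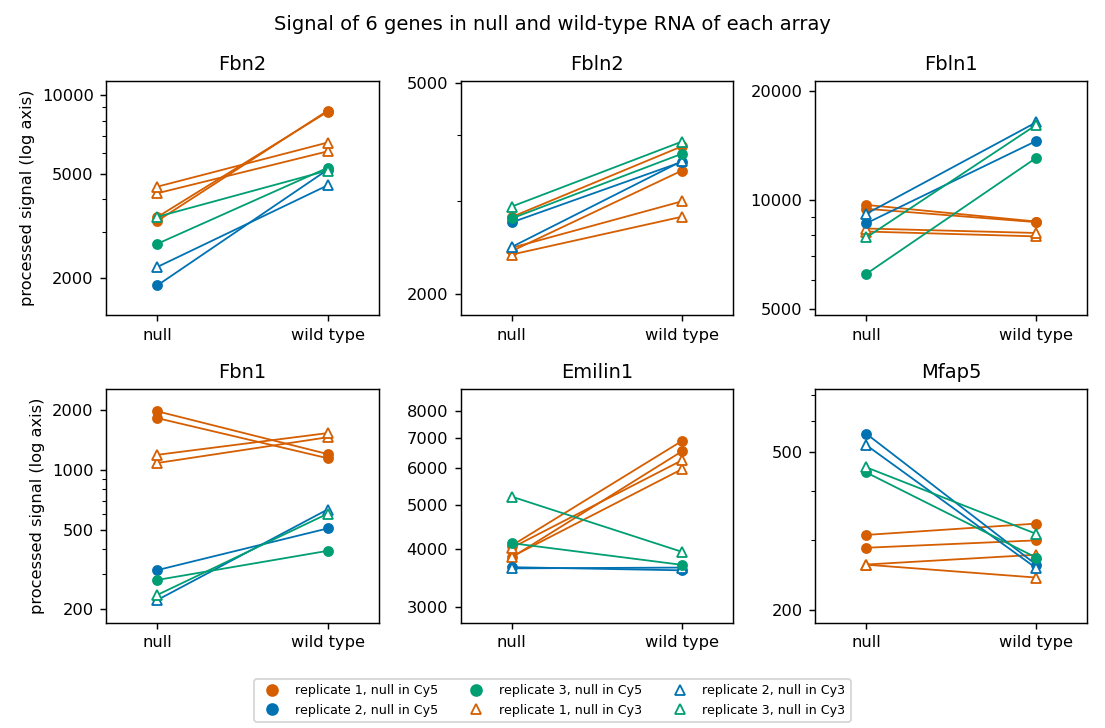
Processed signal (vertical axes, log scale) of 6 genes of the group in null and in wild-type RNA, with a line for each of the 8 arrays, coloured by replicate. The wild-type signal lies above the null signal on every array for Fbn2 and Fbln2, and on the second slide alone for the brighter Fbln1 probe.

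Promoters, windows of 300 bases around a transcription start, were listed for 6 of the 10 genes in RefSeq (GRCm38.p6): Fbn1, Fbln1, Fbln2, Fbln5, Mfap2 and Emilin1. Fbn2, Eln, Mfap4 and Mfap5 have no sequence shown. Those below belong to Fbln2, below 0 in every replicate, to Fbln1, below 0 on the second slide, and to Mfap2, whose ratio was near 0. For Fbln1 and Mfap2 the outermost of the listed starts is shown. The listed start of Fbln2 is not the outermost start of that gene. All 3 are on the plus strand, at chr6:91212514-91212813, chr15:85205699-85205998 and chr4:141010174-141010473 for Fbln2, Fbln1 and Mfap2, and read 5′ to 3′. Capitals mark matches to the motifs searched on both strands.
Fbln2: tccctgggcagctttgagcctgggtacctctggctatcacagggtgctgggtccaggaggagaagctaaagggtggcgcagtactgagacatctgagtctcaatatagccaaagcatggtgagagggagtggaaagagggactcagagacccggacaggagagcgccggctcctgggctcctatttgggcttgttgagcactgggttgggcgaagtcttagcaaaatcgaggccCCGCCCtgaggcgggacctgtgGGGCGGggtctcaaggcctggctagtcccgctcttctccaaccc
Fbln1: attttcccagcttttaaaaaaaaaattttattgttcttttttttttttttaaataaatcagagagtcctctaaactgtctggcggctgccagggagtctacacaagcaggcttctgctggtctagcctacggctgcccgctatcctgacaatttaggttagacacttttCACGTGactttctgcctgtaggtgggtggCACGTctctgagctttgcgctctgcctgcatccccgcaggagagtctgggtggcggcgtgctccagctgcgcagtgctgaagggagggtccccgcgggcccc
Mfap2: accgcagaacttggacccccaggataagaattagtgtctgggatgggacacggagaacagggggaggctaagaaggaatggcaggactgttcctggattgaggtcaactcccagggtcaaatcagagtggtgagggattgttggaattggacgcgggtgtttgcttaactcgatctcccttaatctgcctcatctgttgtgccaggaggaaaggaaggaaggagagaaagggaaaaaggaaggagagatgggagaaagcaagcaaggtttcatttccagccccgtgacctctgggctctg
The motifs were the TATA box (TATAAA), the GC box (GGGCGG), the core of the hypoxia response element (ACGTG), the p53 half-site and the CArG box, which smooth muscle genes often carry. Fbln2 had 2 GC boxes. Fbln1 had 3 matches to ACGTG, 2 of which overlap because CACGTG reads the same on both strands. The window of a second listed Fbln1 start held the same 3 matches and also 2 GC boxes. Mfap2 had no match in the window shown, and 2 GC boxes in the window of a second listed start. No promoter of the 6 genes matched the TATA box, the p53 half-site or the CArG box. Among all 32851 promoters of the table, 13.6% held a TATA box, 35.7% a GC box, 19.6% the hypoxia core, 8.36% a p53 half-site and 1.63% a CArG box. The GC content of the windows shown was 60.3% for Fbln2, 51.7% for Fbln1 and 52.0% for Mfap2, against a median of 52.7% over all promoters. In the second windows it was 64.0% for Fbln1 and 68.0% for Mfap2. A match is a run of letters and was not tested as a binding site.

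Eln encodes tropoelastin, the soluble precursor of elastin, and its ratio stayed near 0. The replicates had −0.07, 0.14 and 0.12, a mean of 0.06 ± 0.12. Signals were 378 in null and 395 in wild-type RNA in replicate 1, 330 in null and 292 in wild-type RNA in replicate 2, and 403 in null and 357 in wild-type RNA in replicate 3. Of the 8 arrays, 4 lay below 0 and 4 above it, and none was beyond −0.14 or 0.23. Elastin thus showed no ratio like that of Fbn2 on any array.

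Mfap2 encodes MAGP-1, a glycoprotein of the microfibril's beads. Its brighter probe had 0.12, 0.10 and −0.01, a mean of 0.07 ± 0.07. Its second probe had −0.02, 0.13 and 0.10, a mean of 0.07 ± 0.08. Both probes changed sign with the dye. The brighter one averaged −0.14 with null RNA in Cy5 and 0.30 with null RNA in Cy3, and the second −0.15 and 0.25 in the same orientations. Mfap4, whose product binds elastin and collagen, had the same kind of dye difference, with −0.20 for null RNA in Cy5 and 0.21 for null RNA in Cy3, and a mean of 0.05 ± 0.19. No direction is given for either gene.

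Mfap5, which encodes MAGP-2, the close relative of MAGP-1, had the highest mean of the group at 0.37 ± 0.41. Its signals were 279 in null and 285 in wild-type RNA in replicate 1, 539 in null and 257 in wild-type RNA in replicate 2, and 452 in null and 290 in wild-type RNA in replicate 3. The 4 arrays of replicate 1 ran from −0.12 to −0.02, and the 4 of the second slide from 0.37 to 0.79. The null signal was the higher one in both pairs of the second slide, and the groups of arrays did not overlap. Of all 12000 genes, 7.82% had a mean as high.

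Emilin1 encodes an elastin microfibril interface protein that restrains the maturation of TGF-beta, and its replicates ran from below to above 0. They had −0.73, 0.00 and 0.26, a mean of −0.15 ± 0.51. Signals were 3947 in null and 6400 in wild-type RNA in replicate 1, 3644 in null and 3623 in wild-type RNA in replicate 2, and 4632 in null and 3821 in wild-type RNA in replicate 3. The arrays of a replicate lay close together in both dye orientations, from −0.78 to −0.66 in replicate 1, −0.06 and 0.06 in replicate 2, and 0.20 and 0.32 in replicate 3. Of 10 markers of smooth muscle and perivascular cells, 8 were below 0 in replicate 1 and above 0 in replicate 3, like Emilin1. Among all 12000 genes, 3890 had these signs. The other 2 markers ran differently, Cspg4 with −0.22, −0.85 and −0.73 and Notch3 with 0.05, −0.85 and −0.77. The median of the list was −0.55, 0.01 and 0.38 in the 3 replicates, and all 10 were well above background in both genotypes. Their summed signal was 39616 in null and 60190 in wild-type RNA in replicate 1, 52594 in null and 54669 in wild-type RNA in replicate 2, and 67083 in null and 54410 in wild-type RNA in replicate 3. Loxl1, a lysyl oxidase that cross-links elastin, had a similar run of −0.76, 0.12 and 0.45. The part of these cells in the Emilin1 ratio was not tested.

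Over the 9 tested genes, 5 had a mean below 0, where 49.2% of all genes did, and 4 a mean above 0. With each array centred on its median in place of loess, 4 of the 9 genes and 24.5% of all genes lay below 0, and Fbn2 and Fbln2 had −0.72 and −0.16. Fbn2 and Fbln2, 2 of the 9, were lower in null kidneys in all 3 replicates, beside 19.7% of all genes. No gene of the group was higher in all 3 replicates, beside 20.4% of all genes. The same 2 genes were lower on all 8 arrays, as were 7.91% of all genes. Since the genes were chosen with these ratios known, nothing is read from these shares. The median of the 9 genes was −0.15, against 0.00 over all genes, and it was −0.07, 0.00 and −0.01 within replicates 1, 2 and 3. Leaving out replicate 1 gave a median of 0.0451. For 6 of the 9 genes replicate 1 had the opposite sign to both replicates of the second slide, as for 45.4% of all genes. They were Fbn1, Eln, Fbln1, Mfap4, Mfap5 and Emilin1.

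**Figure D3:**
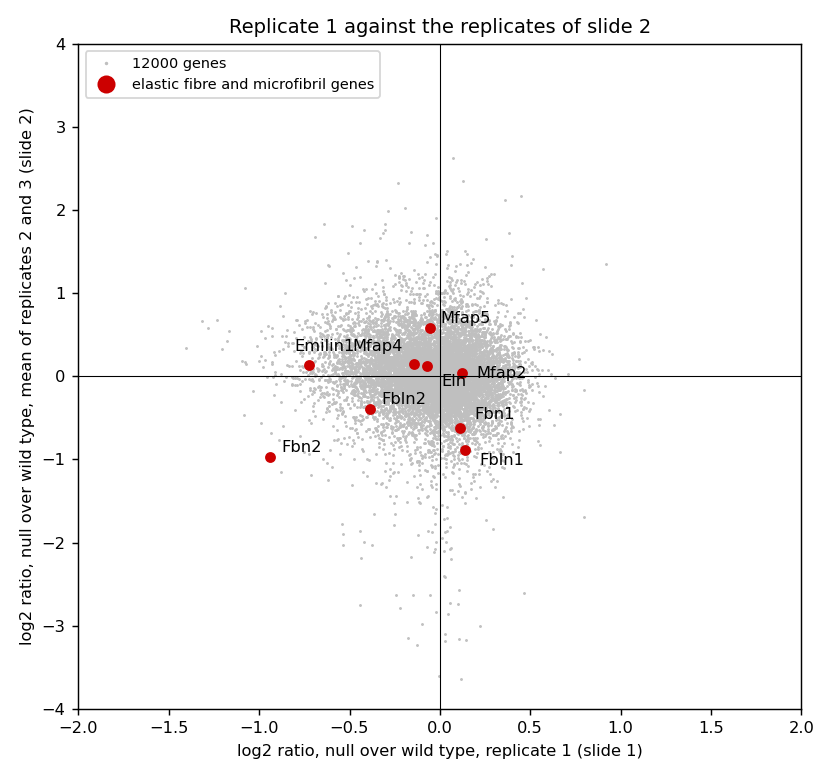
Log2 ratio of null over wild type in replicate 1 (horizontal axis) against the mean of replicates 2 and 3 (vertical axis) for 12000 genes (grey; 2 lie outside the plotted range), with the 9 tested genes of the group in red. Fbn2 and Fbln2 lie at the lower left, while Fbn1 and Fbln1 are below 0 on the vertical axis alone and Emilin1 on the horizontal axis alone.

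The genes most like Fbn2 were looked for over the 8 arrays, by the root-mean-square difference of their log2 ratios among 12000 genes. The nearest was Per1, a gene of the circadian clock, with a difference of 0.237 and a mean ratio of −0.81 ± 0.21. Gapdh, a glycolytic enzyme, followed with a difference of 0.241 and a mean of −0.87 ± 0.27. The next were Pim3, a kinase, with 0.288 and a mean of −0.73 ± 0.21, Dlk1, a surface protein of fetal stroma, with 0.295 and a mean of −1.06 ± 0.17, and Plppr3 with 0.319 and a mean of −0.70 ± 0.16. All 5 lay below 0 on 8 of 8 arrays, which follows largely from their choice by nearness to Fbn2 on these arrays. None encodes a part of the elastic fibre. Among the genes of the lists below, Mmrn2, an emilin-family protein of blood vessels, and Ltbp4, a latent TGF-beta binding protein, followed Fbn2 best by Pearson correlation over the 8 arrays (0.904 and 0.844). The points of these correlations share RNA within replicates and differ in dye. The mean ratios were −0.14 ± 0.05 for Mmrn2 and −0.19 ± 0.05 for Ltbp4, far smaller than that of Fbn2. By replicate Fbn2 was lowest in replicate 2, as was Mmrn2, with −0.09, −0.19 and −0.14. Ltbp4 was lowest in replicate 1, with −0.23, −0.19 and −0.14.

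The rest of the pathway was read from 7 lists of 74 genes, of which 59 had a tested probe. No gene among them passed an adjusted p of 0.05 (limma's moderated test with Benjamini-Hochberg adjustment over 20865 probes), and the same fit called 0 of 12000 genes, or 0% (2179 had an unadjusted p under 0.05). Of the 59 genes, 16 had an unadjusted p under 0.05 and a lower level in null kidneys, beside 8.93% of all genes, and 1 a higher level, beside 9.23% of all genes. The called count was not stable: the same 59 genes gave 39 calls without replicate 1, 32 with the slide as a fixed block, 9 with a random replicate block and 0 with 1 value per slide. The mean was below 0 for 45 of the 59 genes, beside 49.2% of all genes, and above 0 for 14. In null kidneys 21 were lower in all 3 replicates, beside 19.7% of all genes, and 3 higher, beside 20.4%. The lists, like the members, were chosen with earlier results of these data known, so nothing is read from these shares. The median of the 59 was −0.16 overall and −0.13, −0.11 and −0.14 within replicates 1, 2 and 3, beside 0.00 for all genes. With median centring, the median of all genes moved to 0.15 and that of the 59 to −0.00264, and 30 of the 59 lay below 0. Under either scaling the pathway median lay below that of all genes by a similar amount, and signs of genes near 0 were not kept. Both scalings use the same arrays and the same chosen lists, so nothing is read from this likeness either.

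**Figure D4:**
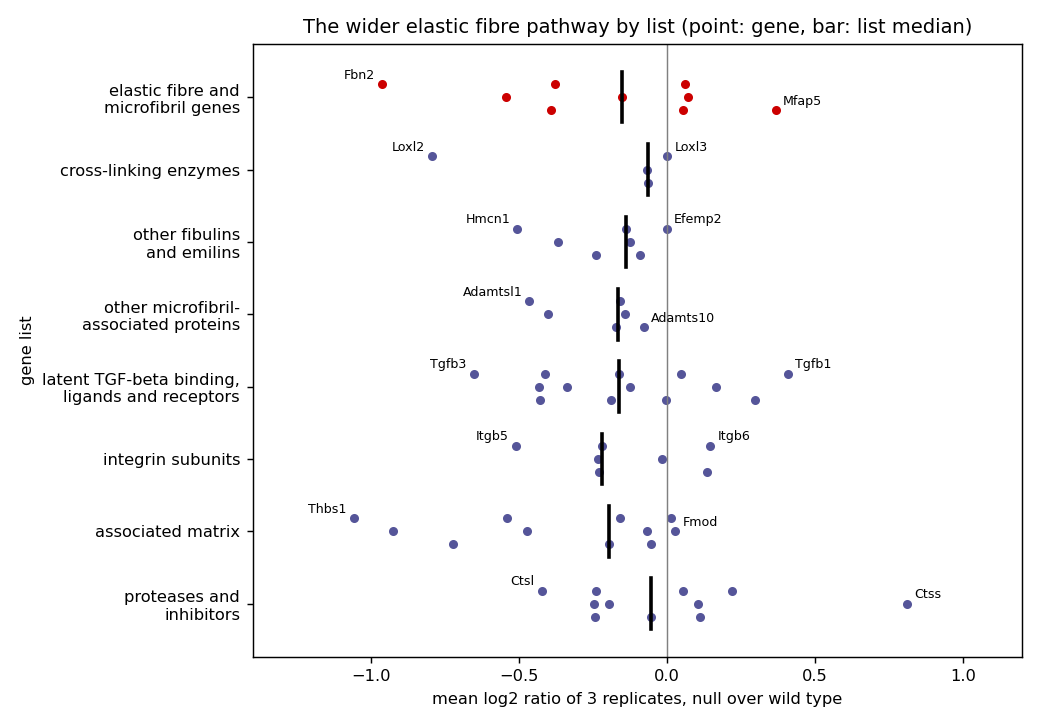
Mean log2 ratio of null over wild type of each gene (points) in the group and in the 7 lists of the wider pathway, with the list median as a bar and the outermost genes named. The 59 genes of the lists lie mostly below 0, with medians between −0.22 and −0.05.

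Of the 5 lysyl oxidases, which cross-link elastin and collagen, 4 were measured, 3 had a mean below 0 and 1 was lower in all 3 replicates. That gene was Loxl2, with −0.61, −1.07 and −0.70, a mean of −0.79 ± 0.25 and 8 of 8 arrays below 0 (limma, adjusted p = 0.279). Like Fbn2, it was lowest in replicate 2. Loxl3 and Loxl4 lay near 0, with 0.00 and −0.07. Among the other fibulins and the emilins all 7 measured genes had a mean at or below 0, with a median of −0.14, and 3 were lower in all 3 replicates. Fbln7, a short fibulin, had −0.37 ± 0.16 and Emilin2 −0.24 ± 0.09, both below 0 on 8 of 8 arrays (limma, adjusted p = 0.279 and 0.283). A second Emilin2 probe had −0.14 and was above 0 in replicate 3. Efemp1 and Efemp2, which encode fibulin-3 and fibulin-4, had −0.09 and 0.00.

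The list of other genes tied to the microfibril by name or function had 6 measured genes of 13. All 6 had a mean below 0, with a median of −0.17, and 2 were lower in all 3 replicates. Mfap1a, with −0.16, is on this list by name. Thsd4, which encodes ADAMTSL6, a protein that promotes fibrillin-1 assembly, had −0.46, −0.41 and −0.34, a mean of −0.40 ± 0.06 (limma, adjusted p = 0.279). Adamtsl4, which binds fibrillin-1, had −0.14 ± 0.07 (limma, adjusted p = 0.370). Both lay below 0 on 8 of 8 arrays. Of 13 latent TGF-beta binding proteins, ligands and receptors, all 13 were measured, 9 had a mean below 0 and 5 were lower in all 3 replicates, with a median of −0.16. Bmp4, a ligand of the ureter sheath and stroma that restrains ureteric budding, had −0.37, −0.53 and −0.39, a mean of −0.43 ± 0.09. Ltbp3, which binds latent TGF-beta, had −0.41 ± 0.24, with −0.16 on its second probe. Both had an adjusted p of 0.279 (limma) and lay below 0 on 8 of 8 arrays.

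The integrins that bind fibrillins, fibulins and fibronectin had 7 measured genes of 8, with a median of −0.22, 2 lower and 1 higher in all 3 replicates. Itgb5 had −0.51 ± 0.16 and Itgb1, the shared chain of many integrins, −0.23 ± 0.06, both below 0 on 8 of 8 arrays (limma, adjusted p = 0.279 and 0.280). A second Itgb1 probe was above 0 in replicate 1, at 0.24. The matrix proteins that microfibrils assemble with had 11 measured genes of 11, 9 with a mean below 0, a median of −0.20 and 4 lower in all 3 replicates. Fn1 encodes fibronectin, whose fibrils are the template for fibrillin assembly. It had −0.60, −1.29 and −0.89, a mean of −0.93 ± 0.34, with 8 of 8 arrays below 0 (limma, adjusted p = 0.279). Its other probes had −0.81 and −0.29, so the probes shared the sign and not the size. Lum, a small proteoglycan of collagen fibrils, had −0.54 ± 0.27 (limma, adjusted p = 0.279).

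Proteases that cut elastin or fibrillins and their inhibitors were the most mixed, with 6 of 11 measured genes below 0 and a median of −0.05. Of these, 4 were lower and 2 higher in all 3 replicates. Timp3, an inhibitor held in the matrix, had −0.24 ± 0.10 and lay below 0 on 7 of 8 arrays (limma, adjusted p = 0.283). Mmp9, a gelatinase, was kept through its wild-type channel, which passed the background test on 8 of 8 arrays, while the null channel passed it on 2 of 8. Its ratio of −0.25 is thus set mostly against background, and it is 1 of the 16 and 1 of the 21 lower genes counted above. Ctss, an elastase of macrophages and the single pathway gene with an unadjusted p under 0.05 and a higher level, was chosen after its values were seen. It had 0.05, 1.12 and 1.27, and the macrophage markers beside it had medians of 0.24, 0.64 and 0.58. Their summed signal was 5096 in null and 4173 in wild-type RNA in replicate 1, 4682 in null and 2598 in wild-type RNA in replicate 2, and 5185 in null and 2693 in wild-type RNA in replicate 3, with all 5 well above background. Their part in the Ctss ratio was not tested.

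Markers of the cells that make or surround the fibres were followed beside the group. The marker lists too were chosen with earlier results of these data known, so nothing is read from the shares given here. Renal stroma had 13 of 14 markers with a mean below 0 and 8 lower in all 3 replicates, beside 49.2% and 19.7% of all genes, with medians of −0.23, −0.31 and −0.32 in replicates 1, 2 and 3. With median centring, 9 of the 14 lay below 0 and the median was −0.0478, beside 0.15 for all genes. The summed signal was 266070 in null and 326120 in wild-type RNA in replicate 1, 321890 in null and 395880 in wild-type RNA in replicate 2, and 324350 in null and 398600 in wild-type RNA in replicate 3. The stromal sum was thus lower in null RNA in each pair, like Fbn2 and Fbln2, and the part of the stromal share in their ratios was not tested. Of the 14, 4 were above 0 in replicate 1 and below 0 on the second slide, like Fbn1 and the brighter Fbln1 probe. Among these 4 was Foxd1 with 0.13, −0.56 and −0.92. Of all 12000 genes, 2344 had this run of signs. The opposite run was seen in 2 of the 14, beside 3107 of all 12000 genes. Among these 2 was Tcf21 with −0.45, 0.55 and 0.68. The 8 endothelial markers had a median of 0.23 and the 12 nephron markers −0.14. Of the 6 erythroid markers, 5 were below 0 in replicate 1 and above 0 on the second slide, beside 3107 of all 12000 genes. The embryonic globin Hbb-y ran the other way with 0.46, −2.44 and −2.76. The erythroid medians were −0.31, 1.26 and 1.56, and the medians of the 4 liver markers −0.03, 0.97 and 0.59. The erythroid sum was 270280 in null and 362080 in wild-type RNA in replicate 1, 709130 in null and 300250 in wild-type RNA in replicate 2, and 874960 in null and 299970 in wild-type RNA in replicate 3. Mfap5 had the same signs as these medians and the opposite signs to Hbb-y. The medians of smooth muscle and perivascular markers, −0.55, 0.01 and 0.38, had these signs too, as did Emilin1. The part of blood, liver or smooth muscle RNA in the Mfap5 ratio was not tested. Markers of other neighbouring tissue ran both ways. Of 8 gonad and mesonephros markers, 4 were measured, with a median of −0.14. A mean below 0 was seen in 3 of them, and 2 were lower and 1 higher in all 3 replicates. Of 6 adrenal markers, 2 had a tested probe, and these 2 were higher in all 3 replicates. The adrenal sums were 363 in null and 295 in wild-type RNA in replicate 1, 353 in null and 158 in wild-type RNA in replicate 2, and 358 in null and 156 in wild-type RNA in replicate 3. Of the skeletal muscle markers 5 of 6, and of the nerve and glia markers 3 of 5, were higher in all 3 replicates, beside 20.4% of all genes. Their medians were 0.27 and 0.23, and the part of other tissue in the lower stromal values was not tested.

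**Figure D5:**
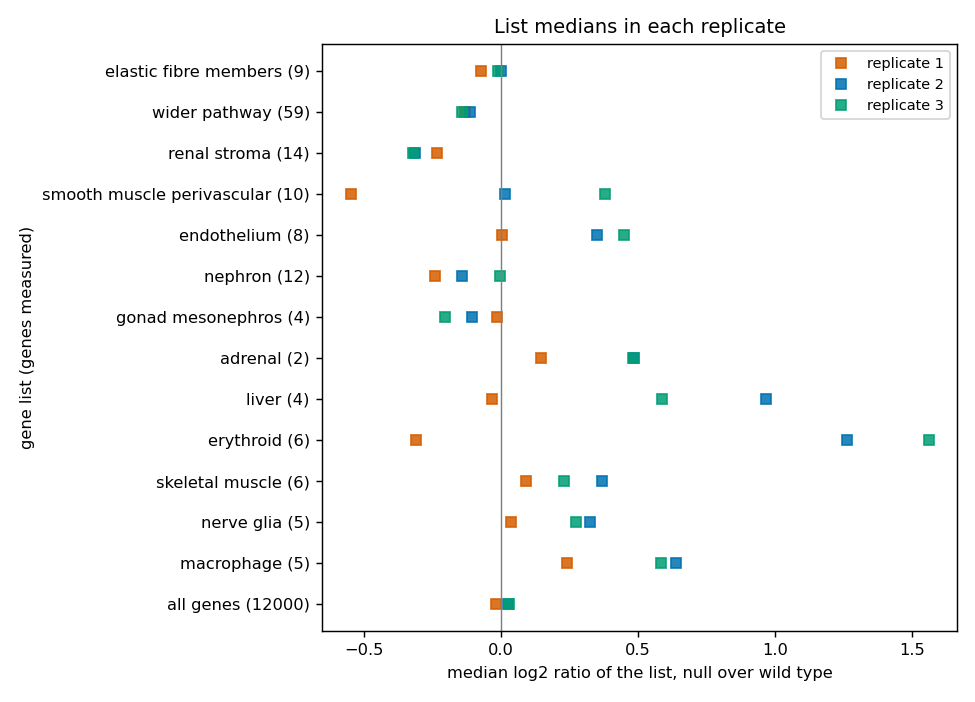
Median log2 ratio of null over wild type of the group, the wider pathway and the marker lists in each of the 3 replicates (squares), with the number of genes measured in brackets. Renal stroma lies between −0.32 and −0.23 in all 3, while smooth muscle and erythroid markers change sign between replicate 1 and replicate 3.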

How the data were processed

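Total RNA of null and wild-type kidneys was hybridised in pairs to 8 Agilent arrays. The authors deposited scanner files with spot and background brightness as linear intensity, written by Feature Extraction, version 10.5.1.1 in the headers and 6.1 in the submitters' processing notes, and with the log10 ratio of red over green. The deposited value table holds the same log10 ratios turned to null over wild type.

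The planned mean spot signal is absent from these files, so median spot and background signals were used. In limma 3.58.1 (R 4.3.3), normexp with an offset of 50 corrected the background and loess within each array normalized the ratios. Control spots got weight 0 and were dropped, outlier-flagged spots became missing values, and 0 spots were saturated. The signals quoted are the program's processed signals, which were background-subtracted and dye-normalized, per the file headers; a replicate's signal is the geometric mean over its arrays, and a list's sum is the mean over a replicate's arrays of the signals added up on each array. Probes were kept where the same genotype passed the background test on 50% or more of each replicate's arrays; 20880 of 41174 were kept and 20865 had a value in all 3 replicates. The offset compresses ratios of dim probes, and the number of arrays limits the precision. Probes were named through RefSeq accessions to genes of RefSeq's GRCm38.p6 annotation (25097 named), while the array design is on mm9 per the file headers. The brightest kept probe stands for a gene. The 3 replicate values of each probe were tested against 0 with limma's moderated fit (two-sided, Benjamini-Hochberg adjusted over the 20865 probes, threshold 0.05); it was tested on simulated data. With 3 replicates, an exact sign permutation gives no p under 0.25.

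The members and the gene lists were chosen with earlier results of these data known. Genes named are all members with every probe, up to 2 genes of each pathway list with the smallest unadjusted p among those of one sign in all replicates, the 5 genes nearest to Fbn2 by root-mean-square difference and the 2 best by correlation among the listed genes, and any other gene was picked with its values in view. The alternatives changed the background correction, normalization, filter, flags, input values, replicates, slide, replicate block, probe rule and dye orientation.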

Additional observations from a re-analysis of the deposited data

Results flagged for a closer look

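1 value stood apart among the arrays of the named genes. Thsd4, which encodes a protein that promotes fibrillin-1 assembly, had a log2 ratio of null over wild type of −0.85 on the third array of replicate 1, while the other 7 arrays lay between −0.47 and −0.18. The gap to the nearest array was 0.569 of the whole range. Chance flags about 1 in 20 such groups, and arrays of a replicate share their RNA.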

How the results depend on the processing

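Fbn2 ran from −1.22 (null in Cy5 alone, replicates weighted equally) to −0.70 (null in Cy3 alone) and Fbln2 from −0.42 (normexp offset 0) to −0.16 (median centring). The filters, outlier flags, Aquantile and probe averaging left both values as they were, so they are no check of them. Probe averaging and each dye orientation alone gave 3 members lower in every replicate, in place of 2. Leaving out 1 replicate gave between 0 and 11699 probes past the threshold, between 0 and 39 pathway genes, 2 to 4 members lower in every replicate and a member median of −0.30 to 0.0451. The highest counts came without replicate 1, which left the pairs of slide 2, whose wild-type RNA may be shared (5275 probes lower and 6424 higher in null). The slide as a fixed block gave 8521 probes and 32 pathway genes, and 1 value per slide gave 0 of each. Entering the 8 arrays singly, with a random replicate block, in place of 1 value per replicate, gave 1132 probes and 9 pathway genes; this block treats arrays of the same RNA as separate values. Every ratio is itself a paired value of null and wild-type RNA. Replicate 1 alone had 6 members below 0 and a member median of −0.0722. The member median was 0.0802 with median centring, −0.0663 with no filter on dim probes, and −0.26 both with the slide as a block and with 1 value per slide. The fits with a slide block or a replicate block give no count of members lower in each replicate. Replicate 1 alone has no test, and averaging probes gives no probe count. Fbln5 was too dim to measure on all arrays, and the second Fbn1 probe on the second slide.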
